A study of Mus musculus with 54 samples.

Results

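The 9 genes described here mark macrophages of the peritoneal cavity: Gata6, Timd4, Icam2, Vsig4, Adgre1, Csf1r, Spi1, Cebpb and Maf. They were chosen by symbol and found once each among the 39179 genes of the count files. They were followed through 15 conditions of 2 RNA sequencing experiments on mouse peritoneal exudate cells. All cells came from C57BL/6 mice aged 8 to 20 weeks that had received 3% (w/v) thioglycolate medium, an irritant that draws leukocytes into the cavity. The cavity was washed out 4 days later and the adherent cells were cultured, so every condition shares this elicitation.

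In the polarization experiment, cells of 3 mice were left without stimulus (M0), given 100 ng/ml LPS with 50 ng/ml IFNγ (M1) or given 10 ng/ml IL-4 (M2). RNA was taken after 24 h and sequenced as single reads of 50 bases, in 2 technical replicates per mouse and condition. The technical replicates differed by no more than about the sampling noise, with a chi-square per gene of 1.07 to 1.10, and were summed and counted as 1 sample. The reprogramming experiment held 12 conditions with 3 replicates each, sequenced as paired reads of 150 bases. These were M0, M1 and M2 cells, each untransfected or treated with the transfection reagent alone (mock), and M2 cells transfected with a siRNA pool. The pools were a negative pool, pools against E2f1, Myc, Pparg or Stat6, and the combined pool, which joins these targets. The study's methods name Dharmacon as the source of the Myc siRNA and siTools Biotech for E2f1, Pparg and Stat6. They do not name the source of the negative pool. Transfected cells were kept without IL-4 after transfection and harvested 48 h later. The study's methods give 24 h after polarization for untransfected cells without naming this experiment, so the culture time of its untransfected cells is uncertain. The methods call the replicates of M0, M1, M2 and iM1 cells biological. Whether those of this experiment came from separate animals is not stated, so its p-values measure only the spread between these samples.

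Resident macrophages of the healthy cavity are mostly large peritoneal macrophages, which depend on the transcription factor GATA6 and carry high F4/80, ICAM2 and, with age, TIM-4. Small peritoneal macrophages derive from monocytes and carry more MHC class II. After an irritant, many resident cells leave the lavage fluid, and recruited monocyte-derived macrophages predominate. PU.1 (Spi1), C/EBPβ (Cebpb) and c-Maf (Maf) are transcription factors used by macrophages in many tissues, and the CSF1 receptor (Csf1r) carries their main survival signal.

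Of the 9 genes, 3 had a promoter sequence in the RefSeq table used here (build GRCm38.p6), and the 250 bases before each start are shown because Timd4 and Cebpb rose and Vsig4 fell with LPS and IFNγ at 24 h. Capitals mark matches, on either strand, to the letters of an ETS factor core, GGAAGT, or of the core bound by CRE-binding factors, TGACG. Each sequence is read on the strand of its gene, for Timd4 chr11:46810549-46810798 (plus strand), for Vsig4 chrX:96293439-96293688 (minus strand) and for Cebpb chr2:167688665-167688914 (plus strand).
Timd4: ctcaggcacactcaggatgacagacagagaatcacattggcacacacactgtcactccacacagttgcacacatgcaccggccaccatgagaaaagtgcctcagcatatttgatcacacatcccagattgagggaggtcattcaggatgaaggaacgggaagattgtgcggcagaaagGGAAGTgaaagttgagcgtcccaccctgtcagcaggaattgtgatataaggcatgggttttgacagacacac
Vsig4: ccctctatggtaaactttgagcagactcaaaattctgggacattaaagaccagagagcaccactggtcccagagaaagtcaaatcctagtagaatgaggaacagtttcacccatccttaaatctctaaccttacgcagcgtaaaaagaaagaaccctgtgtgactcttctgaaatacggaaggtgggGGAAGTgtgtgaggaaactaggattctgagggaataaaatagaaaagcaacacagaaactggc
Cebpb: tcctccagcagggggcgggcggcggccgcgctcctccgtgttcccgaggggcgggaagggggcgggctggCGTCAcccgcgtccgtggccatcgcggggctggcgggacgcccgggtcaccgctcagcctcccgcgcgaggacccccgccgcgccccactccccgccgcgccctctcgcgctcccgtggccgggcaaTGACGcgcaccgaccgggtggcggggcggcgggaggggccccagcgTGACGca
The Timd4 and Vsig4 windows each held 1 match to GGAAGT, whose letters were found in 19.7% of the 32851 windows of all promoters of the table. It ran from position -72 to -67 before the start of Timd4 and from -63 to -58 before that of Vsig4. PU.1 belongs to the ETS family. The Cebpb window held 3 matches to TGACG or its complement, letters found in 17.8% of all windows. GC made up 81.6% of the Cebpb window and 43.2% of that of Vsig4, against a median of 52.4% over all windows. The letters TTCNNNGAA, AGATAA and TATAAA and the core of the interferon-stimulated response element were also searched on both strands and were not found in the 3 windows, whereas 7.02%, 9.99%, 12.4% and 2.98% of all windows held them, in this order. No overlap between different motifs occurred in these windows.

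Levels are given as CPM, the read count scaled to a common TMM-normalized library total, as the mean ± SD of 3 samples where a mean is given. Fold changes are log2 values with their standard error (SE) and the adjusted p-value of edgeR's quasi-likelihood test, and a gene was called at an adjusted p under 0.05. Where genes are compared with each other, levels are divided by annotated exon length (CPM per kilobase of exon). On that scale Csf1r (159), Adgre1 (130) and Spi1 (94.5) were the most abundant members in M0 cells at 24 h, and Spi1 (212), Adgre1 (165) and Csf1r (161) in untransfected M0 cells of the reprogramming experiment. Gata6 and Timd4 were the lowest in both, with 0.528 and 0.365 at 24 h and 1.87 and 0.945 in the reprogramming experiment. The general macrophage gene Cd68 lay between 1222 and 2233 CPM at 24 h and between 1321 and 2673 CPM in the reprogramming experiment, in every sample. It was not level across conditions, with 2217 ± 20.9 CPM in M0 and 1270 ± 53.1 CPM in M1 cells at 24 h (n = 3 each). Of other genes made by macrophages, Itgam was 875 CPM in M0 and 221 CPM in M1 cells there. Lyz2 was 12210 and 6162 CPM, and Ptprc 487 and 468 CPM, in the same order.

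Markers of other cells were counted in the same samples. Of 5 T cell markers, Cd3d, Cd3e and Cd3g were under 1 CPM in every sample. Of 6 neutrophil markers, S100a9, Ly6g and Retnlg were. The others reached at least 1 CPM in some sample, which were Lck and Trbc2 for T cells and S100a8, Cxcr2 and Mpo for neutrophils. The summed CPM of 5 T cell markers stayed between 0.358 and 5.82, that of 4 dendritic cell markers between 0.379 and 6.81 and that of 5 mast cell markers between 0.126 and 9.54. The eosinophil list ranged from 0.479 to 46.3, carried by Siglecf, because Ccr3, Prg2, Epx and Il5ra were under 1 CPM in every sample. The neutrophil list lay between 3.83 and 14.0. In bulk RNA, fewer cells of a type and less RNA per cell cannot be told apart.

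At 24 h, LPS with IFNγ raised some members and lowered others. Gata6 and Vsig4 fell in M1 cells, Timd4, Adgre1 and Cebpb rose, and Icam2, Csf1r, Spi1 and Maf did not pass the test against M0. The comparison of M1 with M0 called 5 of the 9 members, in an experiment where 72.9% of the 16110 tested genes were called. M2 against M0 called 4 members (27.9% of all genes), and M1 against M2 called 8 members (72.6% of all genes).

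**Figure D1:**
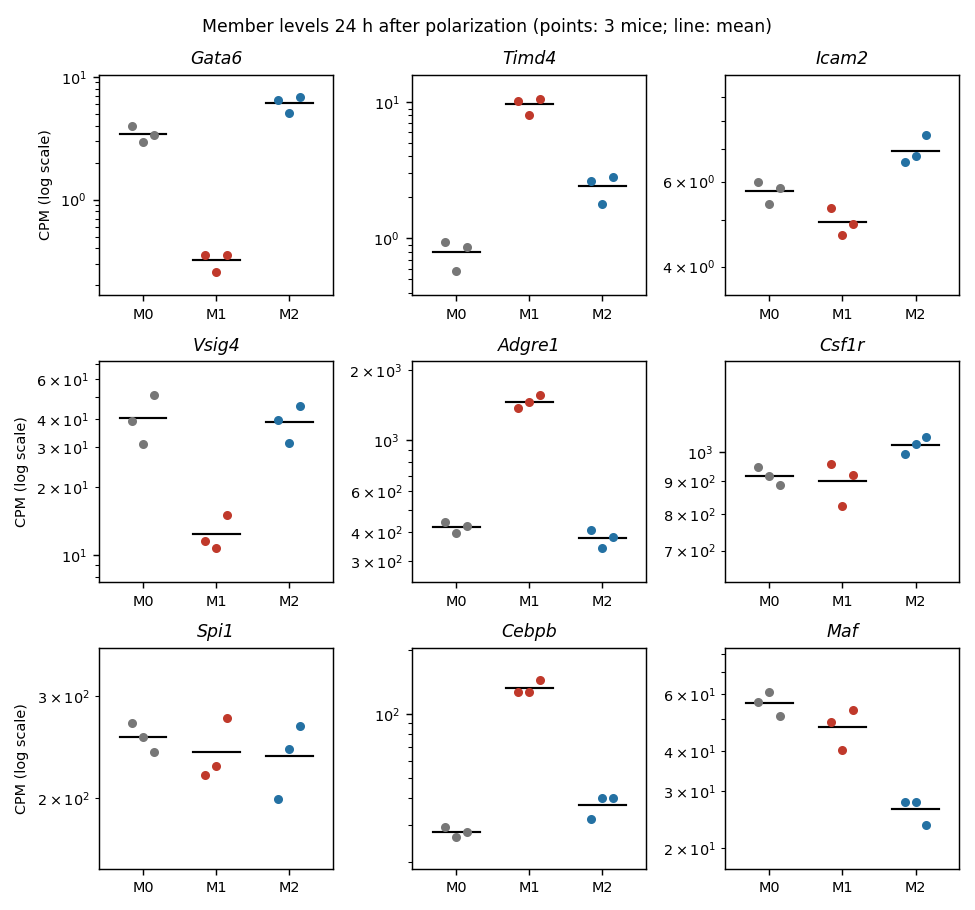
Levels of the 9 genes 24 h after polarization, with CPM on a log axis, 1 point for each of 3 mice and a line at the mean. Gata6 was lowest in M1 cells (0.255 to 0.354 CPM), Adgre1 was highest in M1 cells (1374 to 1553 CPM), and the Spi1 ranges of the 3 conditions overlapped.

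Gata6, on chromosome 18, encodes the transcription factor that defines large peritoneal macrophages. Its levels were 3.98, 2.95 and 3.38 CPM in M0, 0.351, 0.255 and 0.354 CPM in M1 and 6.51, 5.11 and 6.82 CPM in M2 cells. All M1 samples lay below all others, and all M2 samples lay above all M0 samples. The fall from M0 to M1 was 10.6-fold (log2 -3.41, SE 0.21, adjusted p = 2.21e-08), and M2 cells were 1.79-fold above M0 (log2 0.84, SE 0.15, adjusted p = 0.00148). Between M1 and M2 the log2 difference was -4.24 (SE 0.20, adjusted p = 2.14e-09). Behind the M1 values stood 13, 10 and 17 reads.

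GATA6 is also made by mesothelial cells, so the 6 mesothelial and fibroblast markers were set beside it. At 24 h, Msln, Upk3b, Krt19 and Wt1 were under 1 CPM in every sample, and Gata6 lay between 2.95 and 6.82 CPM in M0 and M2 cells. Wt1 was 0.396 ± 0.138 CPM in M0, 0.148 ± 0.064 in M1 and 0.255 ± 0.159 in M2 cells (n = 3 each). Upk3b was 0.189 ± 0.196, 0.0 and 0.095 ± 0.043 CPM in the same order. The summed level of the list, mostly Col1a1 and Col3a1, was 10.28 to 17.2 CPM in M0, 8.63 to 11.35 CPM in M2 and 2.57 to 4.18 CPM in M1 cells. In M1 against M0, 3 of the 3 tested markers of this list were lower (72.9% of all genes called). In M2 against M0, 0 of the 3 were higher and 1 was lower (27.9% of all genes called). The part of mesothelial or fibroblast RNA in the Gata6 values at 24 h was not tested.

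Timd4 (chr11:46810800-46844332) encodes TIM-4, a phosphatidylserine receptor for uptake of dying cells. It was measured at 0.940, 0.578 and 0.864 CPM in M0, 10.2, 8.10 and 10.6 CPM in M1 and 2.66, 1.78 and 2.83 CPM in M2 cells. The 3 conditions did not overlap. M1 cells stood 12.2-fold above M0 (log2 3.60, SE 0.21, adjusted p = 1.51e-08) and M2 cells 3.04-fold above M0 (log2 1.61, SE 0.22, adjusted p = 0.000334). TIM-4 is also found on B-1 cells, and the summed B cell markers were 23.7 to 25.5 CPM in M1 and 9.68 to 26.3 CPM in M0 and M2 cells. Their part in the Timd4 values was not tested.

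Vsig4 (chrX:96247203-96293438) encodes the complement receptor CRIg. Its levels were 39.1, 31.2 and 51.2 CPM in M0, 11.6, 10.7 and 15 CPM in M1 and 39.5, 31.5 and 45.9 CPM in M2 cells. M1 cells lay apart at the low end, while M0 and M2 overlapped. The fall from M0 to M1 was 3.25-fold (log2 -1.70, SE 0.19, adjusted p = 6.14e-06), and M2 against M0 gave a log2 difference of -0.06 (SE 0.18, adjusted p = 0.846). Icam2 (chr11:106377656-106388075), an adhesion molecule of large peritoneal macrophages and endothelium, was 5.73 ± 0.308 CPM in M0, 4.95 ± 0.326 in M1 and 6.95 ± 0.492 in M2 cells (n = 3 each). Only its difference between M1 and M2 was called (log2 -0.49, SE 0.10, adjusted p = 0.000755). The summed endothelial markers, mostly Kdr, moved the other way, at 27.3 to 45.8 CPM in M1 and 4.77 to 13.6 CPM in M0 and M2 cells.

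Adgre1 (chr17:57358691-57483527), the gene of F4/80, rose with LPS and IFNγ. It was measured at 442, 398 and 426 CPM in M0, 1374, 1449 and 1553 CPM in M1 and 408, 342 and 381 CPM in M2 cells. The 3 M1 samples lay above all others, and M0 and M2 overlapped. The rise over M0 was 3.46-fold (log2 1.79, SE 0.08, adjusted p = 1.14e-09). Csf1r, the receptor of CSF1 and IL-34 on chromosome 18, had means of 919 ± 29.2 CPM in M0, 900.2 ± 69.6 in M1 and 1028 ± 30.9 in M2 cells (n = 3 each). It was called between M1 and M2 (log2 -0.19, SE 0.07, adjusted p = 0.0236). That call was lost without replicate 2 of M1, without replicate 2 of M2 or without replicate 3 of M2, where the adjusted p was 0.0624 to 0.121, and with RLE size factors or with only these groups in the model.

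Among the transcription factors, Cebpb (chr2:167688915-167690418) rose, Maf differed with IL-4 and Spi1 (chr2:91082390-91115756) was not called. Cebpb was measured at 29.3, 26.3 and 27.6 CPM in M0, 127, 127 and 144 CPM in M1 and 31.7, 39.9 and 39.9 CPM in M2 cells. The 3 conditions were apart, with a 4.77-fold rise from M0 to M1 (log2 2.26, SE 0.09, adjusted p = 5.24e-10) and a smaller one to M2 (log2 0.42, SE 0.09, adjusted p = 0.00519). Cebpb shares 312 exon bases, 20.7% of its exon length, with Tmem189 on the opposite strand, and the strand setting of the counting is not given in the sources used here. Tmem189 was 217 ± 4.42 CPM in M0, 413 ± 48 in M1 and 162 ± 3.07 in M2 cells (n = 3 each), and its part in the Cebpb values was not tested.

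Maf (chr8:115682942-115707794), a factor of the AP-1 superfamily that supports IL-10 transcription, was lowest with IL-4. Its levels were 56.7, 61.0 and 51.4 CPM in M0, 49.0, 40.1 and 53.4 CPM in M1 and 27.8, 27.7 and 23.5 CPM in M2 cells. All M2 samples lay below all M0 and M1 samples. The fall from M0 to M2 was 2.14-fold (log2 -1.10, SE 0.11, adjusted p = 2.50e-05), while M1 against M0 missed the threshold (log2 -0.25, SE 0.11, adjusted p = 0.0543). The Spi1 means were 255 ± 14.3 CPM in M0, 240 ± 30.0 in M1 and 236 ± 33.8 in M2 cells (n = 3 each), and the 3 log2 differences lay between -0.11 and 0.02 with an SE of 0.11 each.

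In the reprogramming experiment, untransfected M1 cells were lower than M0 cells in 6 members and higher in Cebpb. The comparison called 7 of 9 members where 57.7% of the 14172 tested genes were called. M1 against M2 called 8 members (61.5% of all genes), and M2 against M0 called Vsig4 and Maf (19.9% of all genes). In mock-treated cells, M1 against M0 called 8 members (60.4% of all genes) and M1 against M2 called 7 (60.7% of all genes). M2 mock against M0 mock called no member (3.83% of all genes), although 4 members had an unadjusted p under 0.05 with edgeR, and DESeq2 called 0 as well. The untransfected and the mock comparisons used separate samples, and the 3 contrasts within each set shared theirs.

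**Figure D2:**
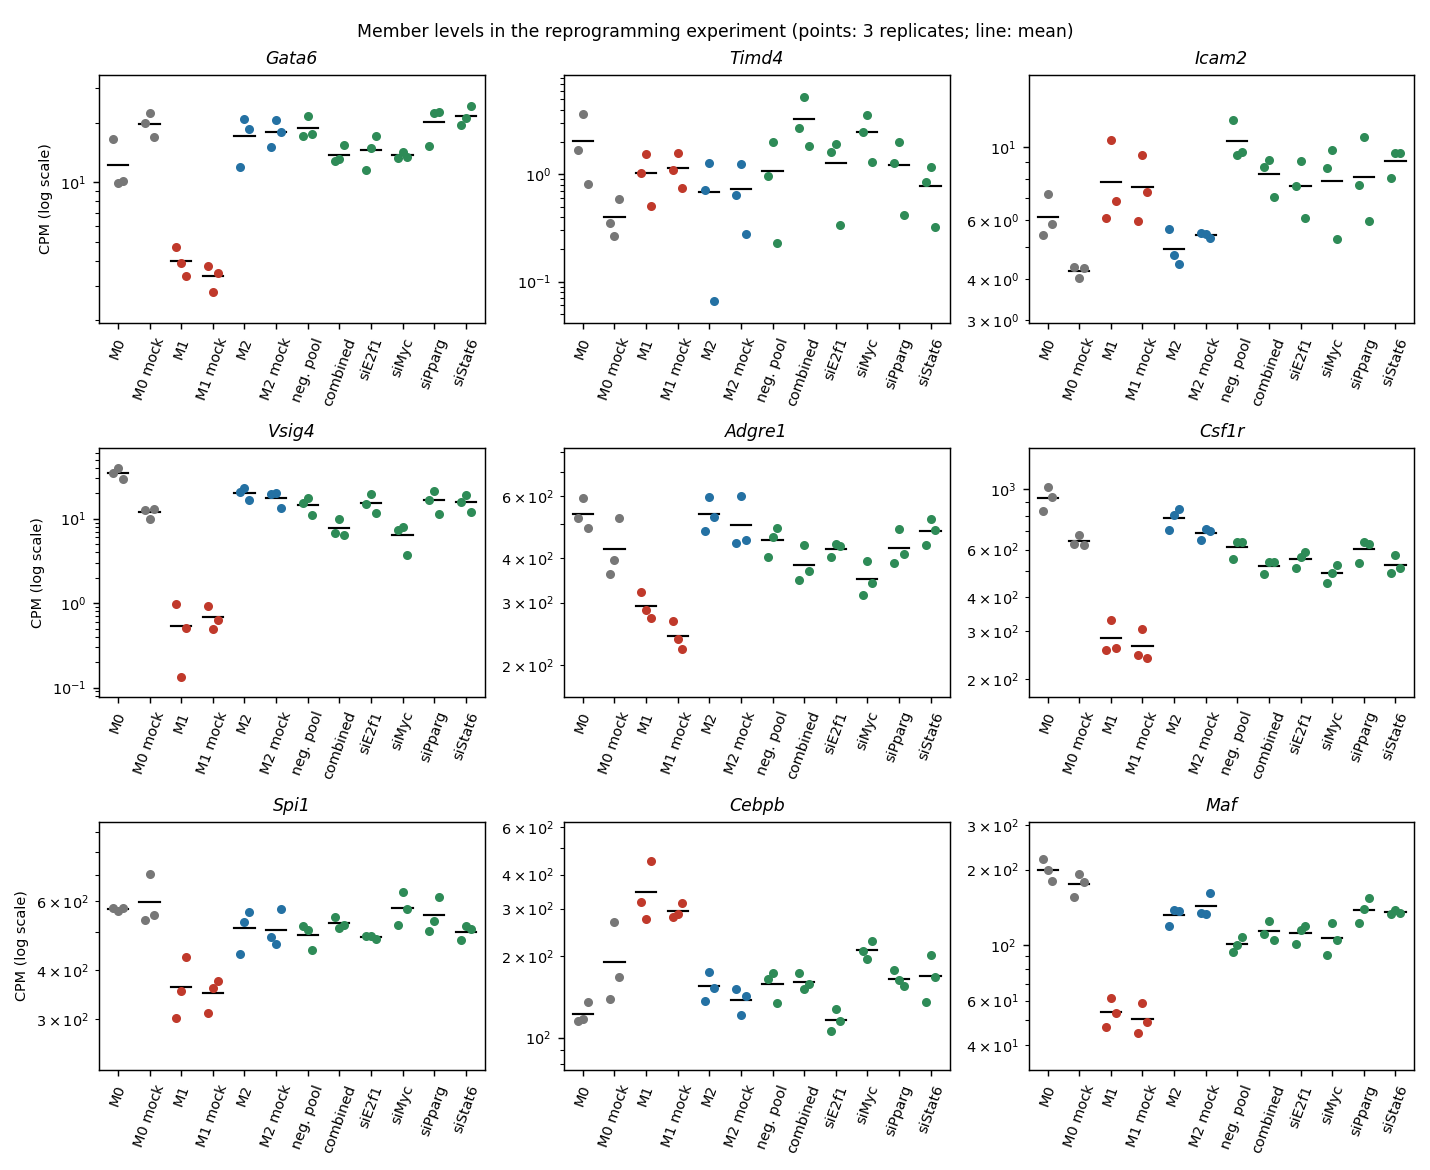
Levels of the 9 genes in the 12 conditions of the reprogramming experiment, with CPM on a log axis, 1 point per replicate and a line at the mean; pools named si are siRNA pools in M2 cells. Vsig4 was under 1 CPM in all 6 M1 and M1 mock samples, and Maf, Csf1r and Gata6 were lower there than in every other sample.

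Vsig4 gave the largest change. It was measured at 34.8, 39.6 and 29.4 CPM in M0, 0.977, 0.134 and 0.505 CPM in M1 and 20.6, 22.8 and 16.4 CPM in M2 cells. The 3 conditions did not overlap, and the M1 values rested on 16, 2 and 8 reads. The fall from M0 to M1 was 62.1-fold (log2 -5.96, SE 0.38, adjusted p = 7.04e-15). In mock cells the levels were 12.7, 9.78 and 13.1 CPM in M0 mock, 0.924, 0.491 and 0.638 CPM in M1 mock and 19.6, 19.98 and 13.2 CPM in M2 mock, and the M1 to M0 difference was 17.2-fold (log2 -4.10, SE 0.38, adjusted p = 7.29e-11). Vsig4 was lower in untransfected M2 than in M0 cells (log2 -0.80, SE 0.23, adjusted p = 0.0148), a call lost without replicate 2 of M0 or replicate 3 of M2 (adjusted p 0.0716 to 0.0729).

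In untransfected cells, Csf1r and Maf had the same order of means as Vsig4, with M0 above M2 and M2 above M1. Csf1r was 930 ± 91.0 CPM in M0, 282 ± 42.3 in M1 and 785 ± 70.7 in M2 cells (n = 3 each), a 3.30-fold fall from M0 to M1 (log2 -1.72, SE 0.10, adjusted p = 2.08e-15). The M1 samples of Csf1r, 255, 331 and 260 CPM, lay below all M0 and M2 samples. The gene Hmgxb3, which shares 873 exon bases with Csf1r on the opposite strand, stayed between 27.5 and 53.7 CPM in all 36 samples. Maf was measured at 221, 198 and 180 CPM in M0, 47.0, 61.2 and 53.3 CPM in M1 and 119, 138 and 136 CPM in M2 cells. Its M1 samples lay below all others, with a log2 difference from M0 of -1.89 (SE 0.12, adjusted p = 5.52e-15). M2 cells were lower than M0 cells (log2 -0.60, SE 0.11, adjusted p = 0.000207).

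Adgre1 was lower in M1 cells here and higher at 24 h, and the difference between the experiments was not tested. It was measured at 520, 594 and 488 CPM in M0, 321, 287 and 271 CPM in M1 and 477, 597 and 524 CPM in M2 cells. The M1 samples lay below all M0 and M2 samples, and the fall from M0 was 1.82-fold (log2 -0.87, SE 0.13, adjusted p = 7.66e-07). Mock cells gave 426 ± 83.6 CPM in M0, 241 ± 22.1 in M1 and 498 ± 88.1 in M2 (n = 3 each; M1 against M0 log2 -0.82, SE 0.13, adjusted p = 1.93e-06). The 2 experiments differ in read length, library layout, sequencing site and possibly culture time, and these differences cannot be told apart.

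Cebpb was again higher in M1 cells, at 316, 274 and 450 CPM against 115, 117 and 136 CPM in M0 and 136, 175 and 153 CPM in M2 cells. The M1 samples lay above all others, 2.83-fold over M0 (log2 1.5, SE 0.17, adjusted p = 6.22e-09). Tmem189, its neighbour on the opposite strand, was 296 ± 35.3 CPM in M1 and 297 ± 20.4 CPM in M0 cells of this experiment (n = 3 each). In mock cells the rise over M0 mock was 1.53-fold (log2 0.62, SE 0.17, adjusted p = 0.00222). Spi1, with 572 ± 6.25 CPM in M0, 362 ± 65.0 in M1 and 511 ± 64.3 in M2 cells (n = 3 each), was 1.58-fold lower in M1 than in M0 cells (log2 -0.66, SE 0.11, adjusted p = 7.31e-06).

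Gata6 lay between 2.80 and 24.2 CPM in the reprogramming experiment and between 0.255 and 6.82 CPM at 24 h, in tables that were normalized separately. It was measured at 16.5, 9.86 and 10.2 CPM in M0, 4.70, 3.88 and 3.34 CPM in M1 and 11.9, 20.9 and 18.6 CPM in M2 cells. The M1 samples lay below all others, and M0 and M2 overlapped. The difference of M1 from M0 was 3.04-fold (log2 -1.60, SE 0.22, adjusted p = 2.87e-07) in untransfected and 5.92-fold (log2 -2.56, SE 0.22, adjusted p = 7.41e-12) in mock cells.

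The mesothelial and fibroblast markers moved in the same samples. Their summed level was 53.9 to 243 CPM in the 30 samples outside M1 and M1 mock and 8.64 to 51.0 CPM in the 6 M1 and M1 mock samples, where Gata6 was 9.86 to 24.2 and 2.80 to 4.70 CPM. Wt1, a transcription factor of mesothelium, was 3.64 ± 1.18 CPM in M0, 0.596 ± 0.550 in M1 and 7.18 ± 2.51 in M2 cells (n = 3 each). Of the 6 markers, 5 passed the filter, whereas Msln was under 1 CPM in every sample. In M1 against M0, 5 were lower in untransfected (57.7% of all genes called) and 5 in mock cells (60.4% of all genes called). Wt1 was also the gene whose mean level followed Gata6 most closely over the 12 conditions (r = 0.992), before Ptprf and Gas1 (r = 0.990 each), among 10129 genes compared. The part of mesothelial or fibroblast RNA in the Gata6 values was not tested.

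**Figure D3:**
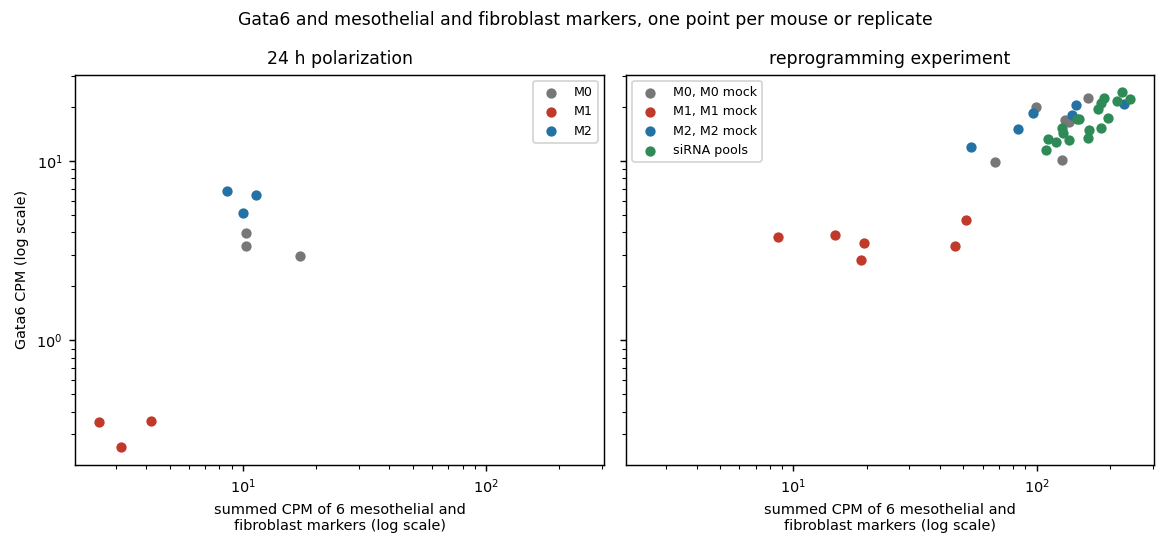
Gata6 level against the summed level of 6 mesothelial and fibroblast markers, both in CPM on log axes, with 1 point per mouse at 24 h (left) or per replicate of the reprogramming experiment (right). In the reprogramming experiment M1 and M1 mock samples lie at 2.80 to 4.70 CPM of Gata6 and 8.64 to 51.0 CPM of the markers, below all other samples on both axes; at 24 h the markers stay at or under 17.2 CPM.

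Timd4 and Icam2 varied more between replicates. Timd4 was measured at 1.68, 3.66 and 0.818 CPM in M0, 1.04, 1.54 and 0.505 CPM in M1 and 0.715, 1.29 and 0.0661 CPM in M2 cells, and all these conditions overlapped. Its counts were low, at 1 to 97 reads per sample over the 12 conditions. Replicate 2 was the highest of its condition in 11 of 12 conditions and replicate 3 the lowest in 11. The summed B cell markers were highest in replicate 2 in all 12 conditions, with 14.1 to 129 CPM outside M1 and M1 mock and 4.64 to 21.4 CPM within them. Of 6 B cell markers, 5 were lower in M1 than in M0 cells untransfected (57.7% of all genes called) and 6 in mock cells (60.4% of all genes called). The part of B cells in the Timd4 values was not tested. Without the replicate number in the model, no comparison of M0, M1 and M2 called Timd4 in this experiment (log2 -1.02, SE 0.66, adjusted p = 0.187 for untransfected M1 against M0). Icam2 was 6.16 ± 0.926 CPM in M0, 7.83 ± 2.35 in M1 and 4.93 ± 0.641 in M2 cells (n = 3 each), and M1 against M2 was called (log2 0.66, SE 0.23, adjusted p = 0.0115). Without replicate 2 of M1, the highest at 10.5 CPM, the adjusted p was 0.151.

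M0 cells treated with the transfection reagent alone differed from untransfected M0 cells. In all comparisons of mock with untransfected cells, the reagent and possibly the culture time differ. M2 mock cells may also have been kept without IL-4 before harvest. These differences cannot be told apart. M0 mock against untransfected M0 called 5 members (20.4% of all genes). Vsig4 was 2.94-fold lower (log2 -1.55, SE 0.24, adjusted p = 1.41e-05) and Csf1r 1.44-fold lower in M0 mock (log2 -0.53, SE 0.10, adjusted p = 0.000226). Timd4 was lower (log2 -2.37, SE 0.77, adjusted p = 0.0259), with 5, 5 and 9 reads in M0 mock against 23, 59 and 12 in M0. Gata6 was higher (log2 0.70, SE 0.19, adjusted p = 0.00721), as was Cebpb (log2 0.64, SE 0.17, adjusted p = 0.00617). Beside Gata6, Wt1 was 7.63 ± 1.68 CPM in M0 mock and 3.64 ± 1.18 CPM in M0, and the mesothelial gene Upk3b was 5.89 ± 1.98 and 2.56 ± 0.511 CPM (n = 3 each). Of the 5 tested mesothelial and fibroblast markers, 1 was called higher, and their part in the Gata6 difference was not tested. The Timd4 call was lost without replicate 2 of M0 or replicates 1 or 2 of M0 mock (adjusted p 0.0690 to 0.224). The Gata6 call was lost without replicates 2 or 3 of M0 or replicate 2 of M0 mock (adjusted p 0.0513 to 0.0623), and the Cebpb call without replicate 2 of M0 mock (adjusted p = 0.180).

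M1 mock against untransfected M1 called no member with edgeR, where 0 of 14172 genes were called (0.0%), with 1 member at an unadjusted p under 0.05. M2 mock against untransfected M2 called no member either (1.77% of all genes), with 0 members at an unadjusted p under 0.05, and DESeq2 called 0 members in both. The effect of polarization itself was then compared between mock and untransfected cells. For M1 against M0, 1 member passed (9.07% of all genes), Cebpb, whose rise was smaller in mock cells (log2 -0.88, SE 0.24, adjusted p = 0.0152). This call was lost without replicate 2 of M0 mock or replicate 3 of M1 (adjusted p 0.0802 to 0.103) and with only these groups in the model. For M2 against M0, Vsig4 (log2 1.38, SE 0.34, adjusted p = 0.0126) and Cebpb (log2 -0.81, SE 0.24, adjusted p = 0.0415) passed (5.66% of all genes). The Cebpb call was lost without any 1 of 7 samples, which were replicates 1 or 2 of M0, 2 of M0 mock, 2 or 3 of M2 mock and 2 or 3 of M2 (adjusted p 0.0613 to 0.221), and with only these groups in the model.

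The siRNA pools addressed whether M2 cells move toward M1 when their transcription factors are reduced. The level of each target, as a percentage of M2 mock, was 18.9 ± 3.03 for E2f1, 35.4 ± 7.45 for Myc, 24.1 ± 2.82 for Pparg and 27.9 ± 5.91 for Stat6 with the pool against it (SD, n = 3 each). With the combined pool these targets stood at 45.2 ± 1.5, 36.8 ± 2.97, 31.0 ± 2.46 and 55.1 ± 4.92% (SD, n = 3 each). With the negative pool, E2f1 stood at 74.8 ± 9.2% and Myc at 93.0 ± 9.18% (SD, n = 3 each). The negative pool itself differed from M2 mock in Icam2 and Maf, 2 of 9 members (11.7% of all genes). Icam2 was higher, with 12.04, 9.47 and 9.67 CPM against 5.51, 5.47 and 5.30 CPM in M2 mock (log2 0.94, SE 0.22, adjusted p = 0.00339). Maf was lower, with 94.1, 100.3 and 107 CPM against 134, 133 and 162 CPM (log2 -0.51, SE 0.11, adjusted p = 0.00262). Neither gene overlapped between these groups.

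Icam2 is also an endothelial gene, and Kdr of the endothelial list was 73.0 ± 2.99 CPM with the negative pool and 29.6 ± 1.13 CPM in M2 mock (n = 3 each). The other endothelial markers were low in every sample of this experiment, with Pecam1 at most 1.06 CPM, Cdh5 at most 1.49 CPM and Tek under 1 CPM. The summed list was 72.1 to 77.1 CPM with the negative pool and 28.6 to 31.2 CPM in M2 mock.

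The combined pool, whose cells the study names iM1, was called against M2 mock in 6 members (37.1% of all genes) and against the negative pool in 2 (26.5% of all genes). Vsig4 was measured at 6.74, 9.997 and 6.45 CPM, below M2 mock (19.6, 19.98 and 13.2 CPM) and below the negative pool (15.5, 17.5 and 11.04 CPM) in every sample. Its log2 difference was -1.18 (SE 0.26, adjusted p = 0.000497) from M2 mock and -0.91 (SE 0.26, adjusted p = 0.00911) from the negative pool, and the latter was lost without replicate 3 of the combined pool or replicate 2 of the negative pool (adjusted p 0.0508 to 0.0541). Untransfected M1 cells had under 1 CPM, so the combined pool lay between M2 mock and M1.

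Timd4 was measured at 2.73, 5.27 and 1.82 CPM with the combined pool and 0.640, 1.26 and 0.279 CPM in M2 mock, with no overlap (log2 2.18, SE 0.67, adjusted p = 0.0101). Against the negative pool, at 0.963, 2.001 and 0.229 CPM, the samples overlapped (log2 1.66, SE 0.62, adjusted p = 0.0457). The first call was lost without replicate 2 of the combined pool or 3 of M2 mock (adjusted p 0.0576 to 0.0893). The second was lost without replicates 1 or 2 of the combined pool or 1 or 3 of the negative pool (adjusted p 0.0610 to 0.265), and with DESeq2. B cell markers summed to 31.1 to 129 CPM with the combined pool, 17.7 to 34.6 CPM in M2 mock and 19.6 to 50.9 CPM with the negative pool, and their part was not tested.

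Csf1r was 486, 540 and 540 CPM with the combined pool against 653, 715 and 706 CPM in M2 mock, 1.32-fold lower (log2 -0.40, SE 0.10, adjusted p = 0.00193). Against the negative pool the log2 difference was -0.23 (SE 0.10, adjusted p = 0.0930), and with the replicate number as a block it was called (adjusted p = 0.0107). Adgre1 (log2 -0.38, adjusted p = 0.0189), Maf (log2 -0.34, adjusted p = 0.0198) and Icam2 (log2 0.61, adjusted p = 0.0279) were called against M2 mock and not against the negative pool. There the direction turned for Maf (log2 0.17) and Icam2 (log2 -0.32), and Adgre1 stood at -0.23. The Adgre1 call was lost without replicates 1 or 3 of the combined pool or 2 of M2 mock, and the Maf call without replicates 1 or 3 of the combined pool or 3 of M2 mock. The Icam2 call was lost without replicates 1 or 2 of the combined pool or any replicate of M2 mock. Over these 11 fits the adjusted p was 0.0606 to 0.208. Spi1 (log2 0.05, SE 0.11), Cebpb (log2 0.22, SE 0.17) and Gata6 (log2 -0.38, SE 0.19, adjusted p = 0.118) were not called.

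The Myc pool called the most members among the single pools, 7 against M2 mock (38.7% of all genes) and 3 against the negative pool (29.6% of all genes). Its supplier also differed from that of the other single pools, so target and supplier cannot be told apart. Vsig4 was measured at 7.25, 7.98 and 3.72 CPM, below all samples of both references (log2 -1.46, SE 0.26, adjusted p = 3.79e-05 from M2 mock and log2 -1.19, SE 0.26, adjusted p = 0.000853 from the negative pool). Cebpb was 209, 195 and 228 CPM, above M2 mock at 152, 121 and 142 CPM (log2 0.61, SE 0.17, adjusted p = 0.00483). Csf1r (log2 -0.49, adjusted p = 0.000212), Adgre1 (log2 -0.51, adjusted p = 0.00172) and Maf (log2 -0.43, adjusted p = 0.00321) were lower than in M2 mock. Maf had the opposite sign against the negative pool and was not called there (log2 0.08).

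Timd4 (log2 1.77, adjusted p = 0.0378) and Icam2 (log2 0.55, adjusted p = 0.0447) were higher than in M2 mock with the Myc pool, and both calls were lost in some fits. The Timd4 call was lost without replicates 1 or 2 of the Myc pool or 1 or 3 of M2 mock (adjusted p 0.0643 to 0.162). The Icam2 call was lost without replicates 1 or 2 of the Myc pool or any replicate of M2 mock (adjusted p 0.0883 to 0.247), with DESeq2 (adjusted p = 0.0534) and with only these groups in the model (adjusted p = 0.0577). Icam2 had the opposite sign against the negative pool and was not called there (log2 -0.38). Against the negative pool, Adgre1 (log2 -0.37, adjusted p = 0.0279) and Csf1r (log2 -0.32, adjusted p = 0.0161) were lower. The Adgre1 call was lost without replicates 1 or 3 of the Myc pool or 2 or 3 of the negative pool, and the Csf1r call without replicate 1 of the Myc pool or 2 or 3 of the negative pool (adjusted p 0.0627 to 0.126 over both). With the replicate number as a block, 6 members were called against the negative pool, adding Timd4 (log2 1.29, adjusted p = 0.00279), Cebpb (log2 0.42, adjusted p = 0.0447) and Gata6 (log2 -0.45, adjusted p = 0.0469). The share of all genes called with the block is not given here. Beside Gata6, 3 of 5 tested mesothelial and fibroblast markers were lower, with Wt1 at 5.28 ± 0.482 CPM against 9.20 ± 1.24 CPM and Upk3b at 2.29 ± 0.522 against 8.59 ± 1.91 CPM (n = 3 each). Their part in the Gata6 difference was not tested.

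The other pools called few members. The E2f1 pool called 2 against M2 mock (11.6% of all genes), Csf1r (log2 -0.31, adjusted p = 0.0381) and Maf (log2 -0.36, adjusted p = 0.0351), and 0 against the negative pool with edgeR and with DESeq2 (0.91% of all genes), where 2 had an unadjusted p under 0.05. Maf had the opposite sign against the negative pool (log2 0.15). The Csf1r call was lost without replicates 1 or 2 of the E2f1 pool or 2 or 3 of M2 mock, and the Maf call without replicates 1 or 2 of the E2f1 pool or 3 of M2 mock (adjusted p 0.0740 to 0.231 over both). The Pparg pool called 0 against M2 mock with edgeR and DESeq2 (17.2% of all genes), with 1 member at an unadjusted p under 0.05. With the replicate block it called 2, Icam2 (log2 0.57, adjusted p = 0.0252) and Csf1r (log2 -0.20, adjusted p = 0.0298). The share of all genes called with that block is not given here. Against the negative pool, the Pparg pool called Maf, which was higher (log2 0.46, SE 0.11, adjusted p = 0.0124, 5.74% of all genes). This call was lost without replicate 3 of the Pparg pool or 1 of the negative pool (adjusted p 0.0773 to 0.120). With M2 mock as reference, Maf had the opposite sign and was not called (log2 -0.05, SE 0.11, adjusted p = 0.830).

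The Stat6 pool called 2 members against M2 mock (11.5% of all genes). Csf1r was 493, 571 and 515 CPM, below all M2 mock samples (log2 -0.39, SE 0.10, adjusted p = 0.00806). Icam2 was higher (log2 0.74, SE 0.22, adjusted p = 0.0239), a call lost without replicates 2 or 3 of the Stat6 pool or any replicate of M2 mock (adjusted p 0.0589 to 0.0847). With the negative pool as reference, Icam2 had the opposite sign and was not called (log2 -0.20). Against the negative pool it called 0 members with edgeR (1.51% of all genes), where 2 had an unadjusted p under 0.05 and DESeq2 called 1. The 6 siRNA comparisons with M2 mock share its 3 samples, and the 5 with the negative pool share the latter's.

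**Figure D4:**
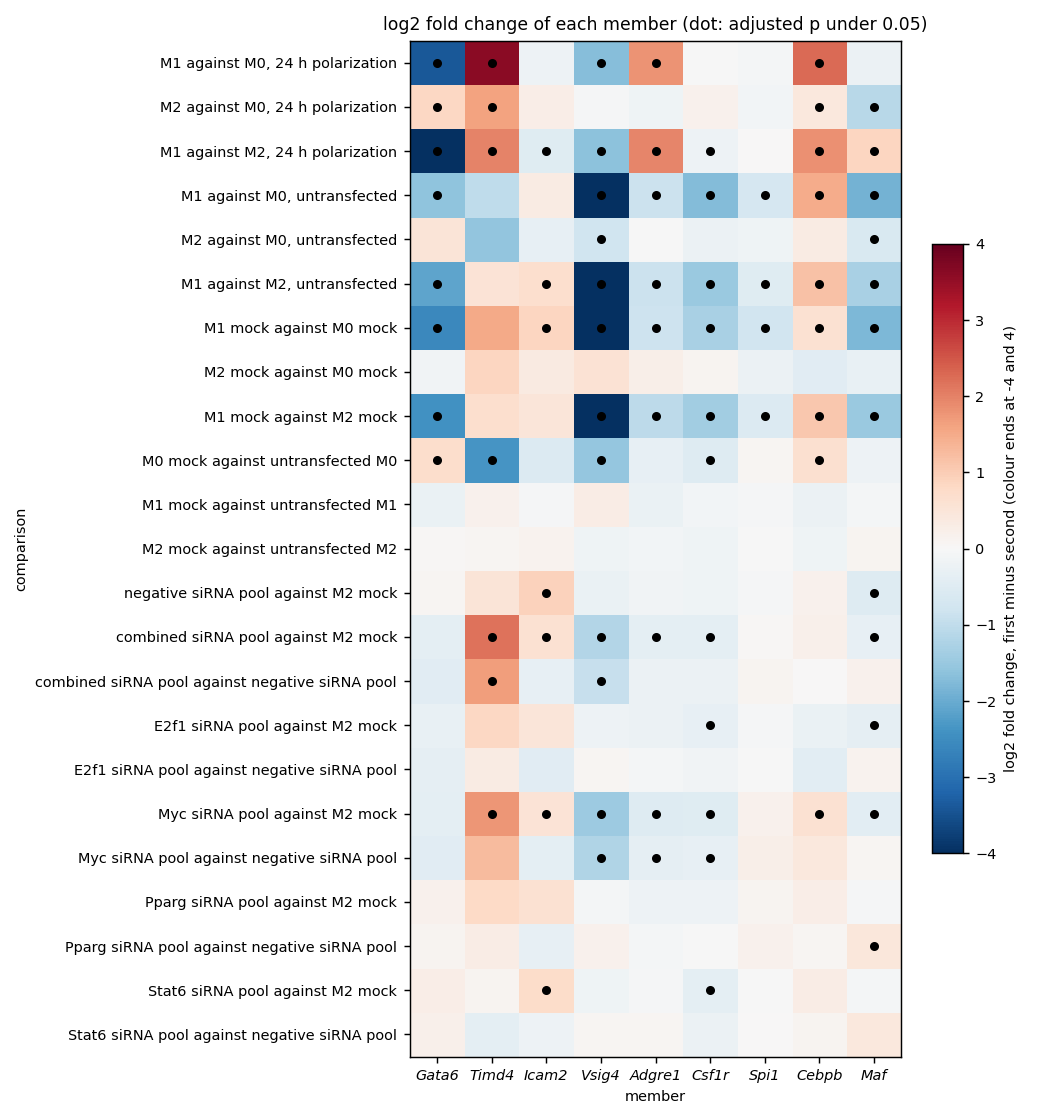
Log2 fold change of each member (columns) in 23 comparisons (rows), coloured from lower (blue) to higher (red) in the first-named group, with a dot at an adjusted p under 0.05. Adgre1 is red in M1 cells at 24 h (log2 1.79 over M0) and blue in M1 cells of the reprogramming experiment (log2 -0.87), and Spi1 has no dot at 24 h or in any siRNA comparison.

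Over the 12 conditions of the reprogramming experiment, ordered by mean level, most neighbouring conditions overlapped in their replicate ranges. Of 11 neighbouring pairs, 11 overlapped for Timd4, 9 for Vsig4 and 10 for each other member. The gap lay above M1 and M1 mock for Gata6, Csf1r, Spi1, Maf and Vsig4, which were the lowest conditions for these genes. For Vsig4 a further gap separated untransfected M0, the highest, from M2. For Adgre1 the gap lay between M1 and M1 mock, for Cebpb between M1 mock and the Myc pool, and for Icam2 above M0 mock, the lowest.

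Mean levels went together among several members, given here as Pearson's r of mean log2 CPM over these 12 conditions, which share libraries and controls. Conditions far from the others weigh most in r. The Vsig4 means were 0.538 CPM in M1, 0.685 CPM in M1 mock and 6.32 CPM or more elsewhere. The order of conditions was not the same, with M0 mock at rank 8 for Vsig4 and rank 2 for Maf. Vsig4 went with Csf1r (r = 0.958), Adgre1 (r = 0.940) and Maf (r = 0.925), and opposite to Cebpb (r = -0.933). Timd4 and Icam2 had r between -0.425 and 0.484 with the other members and each other. The genes closest to Vsig4 were Myl12a (r = 0.989), AA414768 and Emp3 (r = 0.986 each). Those closest to Adgre1 were Gstp1 and Fn1 (r = 0.975 each) and Rgs18 (r = 0.971), and to Csf1r F630028O10Rik and Bsn (r = 0.985 each) and Cotl1 (r = 0.984). For Spi1 they were Wdr81 (r = 0.983), Rftn1 (r = 0.979) and Rgl2 (r = 0.978). For Maf they were Gm6180 (r = 0.986), Hdac5 (r = 0.983) and Gm9800 (r = 0.978), and for Cebpb Ccdc134 (r = 0.965), 1810055G02Rik (r = 0.957) and Crtc3 (r = 0.955). Timd4 had lower values, with Utp14a (r = 0.937), Cnot8 (r = 0.932) and Gm3788 (r = 0.925), as did Icam2, with Glrx (r = 0.914), Sesn2 (r = 0.899) and Eloc (r = 0.898).

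Other genes of peritoneal macrophages were counted in lists. Of 14 further large peritoneal macrophage genes, 4 were higher and 8 lower in M1 than in M2 cells at 24 h, where 72.6% of all genes were called, with a median log2 difference of -0.92 against -0.06 over all genes. Selp, which encodes P-selectin, was lower in M1 (log2 -4.91, SE 0.14, adjusted p = 2.42e-11), as was the fibronectin gene Fn1 (log2 -4.52, SE 0.17, adjusted p = 2.06e-10). Thbs1, which encodes thrombospondin-1, was higher (log2 5.68, SE 0.29, adjusted p = 4.25e-09). In untransfected cells of the reprogramming experiment 3 were higher and 4 lower, where 61.5% of all genes were called. There Thbs1 (log2 3.87) and Fn1 (log2 -2.53) were called and Selp was not (log2 -0.65, adjusted p = 0.124).

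Of 10 small peritoneal macrophage and antigen-presenting genes, 9 were higher and 0 lower in M2 than in M0 cells at 24 h, where 27.9% of all genes were called, with a median log2 difference of 1.61 against 0.00 over all genes. With the combined pool, 8 of 9 tested were lower than in M2 mock (median log2 -0.89, 37.1% of all genes called) and 6 of 9 lower than with the negative pool (median log2 -0.67, 26.5% of all genes called). Itgax, the gene of CD11c, was lower in M1 than in M2 cells at 24 h (log2 -3.84, SE 0.11, adjusted p = 2.53e-11) and in the untransfected reprogramming samples (log2 -5.30, SE 0.19, adjusted p = 4.12e-21). Clec10a, a lectin gene, was lower in M1 at 24 h (log2 -4.86, SE 0.20, adjusted p = 5.86e-10), as was the transcription factor gene Irf4 (log2 -4.22, SE 0.10, adjusted p = 5.53e-12). The list was mixed in M1 against M2, with 3 of 10 higher and 7 lower at 24 h (72.6% of all genes called). In untransfected reprogramming samples, 3 of 9 tested were higher and 6 lower (61.5% of all genes called).

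Of 18 other myeloid transcription factors, 9 were higher and 8 lower in M1 than in M2 cells at 24 h (median log2 0.11, 72.6% of all genes called). Maf itself was higher in M1 there (log2 0.85, SE 0.11, adjusted p = 1.79e-05), as were Irf8 (log2 3.37, adjusted p = 9.65e-12) and Maff (log2 3.22, adjusted p = 4.90e-11). In untransfected reprogramming samples 6 of the 18 were higher and 10 lower (median log2 -0.39, 61.5% of all genes called), and Maf was lower in M1 (log2 -1.29, SE 0.12, adjusted p = 3.95e-11).

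Of 7 genes of the CSF receptor axis other than Csf1r, 5 were tested at 24 h. Of these, 4 were higher and 0 lower in M1 than in M2 cells (72.6% of all genes called). In the reprogramming experiment, 6 were tested, and 2 were higher and 3 lower in untransfected M1 than in M2 cells (median log2 -0.61, 61.5% of all genes called) and 1 higher and 4 lower in mock cells (median log2 -0.72, 60.7% of all genes called). At 24 h, Csf1, which encodes a ligand of CSF1R, was 44.1 ± 6.65 CPM in M1, 7.12 ± 0.0707 in M2 and 4.50 ± 0.838 in M0 cells (n = 3 each; M1 against M0 log2 3.29, SE 0.14, adjusted p = 5.64e-10). Csf2rb, the shared receptor chain for GM-CSF, IL-3 and IL-5, was higher in M1 than in M2 at 24 h (log2 1.12, adjusted p = 5.60e-09), as was Csf3r, the G-CSF receptor (log2 1.22, adjusted p = 1.35e-08). The values of Csf1, Csf2rb and Csf3r in the reprogramming experiment are not given here.

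Of 10 general macrophage surface and granule genes, 3 were higher and 5 lower in M1 than in M2 at 24 h (median log2 -0.14, 72.6% of all genes called). In untransfected reprogramming samples 1 was higher and 6 lower (median log2 -0.52, 61.5% of all genes called). In mock cells 1 was higher and 7 lower (median log2 -0.81, 60.7% of all genes called). The genes named next are the 3 that were higher at 24 h. Mertk, a receptor for uptake of dying cells, was 614 ± 16.8 CPM in M1 and 75.5 ± 4.19 CPM in M2 cells (n = 3 each; log2 3.02, SE 0.06, adjusted p = 1.61e-12). Like Adgre1, it was lower in M1 than in M2 cells of the untransfected reprogramming samples (log2 -0.56, SE 0.09, adjusted p = 1.32e-06). Cd14, the LPS co-receptor, was higher in M1 in both (log2 2.58, adjusted p = 4.88e-07 at 24 h and log2 1.66, adjusted p = 1.64e-16). Fcgr1, an IgG receptor, was higher at 24 h (log2 2.55, adjusted p = 2.34e-09) and not called in the other (log2 -0.45, adjusted p = 0.0761).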

How the data were processed

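RNA sequencing covered 18 libraries of the polarization and 36 of the reprogramming experiment. Per the submitters' processing notes and the study's methods, the authors used Trimmomatic, TopHat2 and featureCounts with mm10; strand setting and versions are not given in the sources used here. The deposited values are raw read counts per gene, and single libraries held 19714994 to 29880494 (polarization) and 13421854 to 19704195 (reprogramming) counted reads. Symbols, coordinates and exon lengths came from GENCODE M21 (GRCm38).

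Groups were taken from the labels. Technical replicates were summed. Genes passed edgeR's filterByExpr (minimum count 10, minimum total 15), giving 16110 and 14172 tested genes, and all 9 members passed in both experiments. Each experiment had 1 quasi-likelihood model (edgeR 4.0.16, R 4.3.3, TMM, two-sided tests), with Benjamini-Hochberg adjustment over all tested genes. The SE is the fold change divided by the root of F. Scripts were tested on simulated data. Alternatives were DESeq2 (1.42.0), scaling by RLE, fits without a low-count filter or with a floor of 10 counts per sample, fits of the compared groups alone, a replicate block, separate technical replicates, Spearman's measure and leaving out each replicate.

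All 9 members are described. Of each list, at most 3 genes are named, those with the largest change between M1 and M2 at 24 h among called genes with a mean log2 CPM of at least 2. A further gene that meets this rule is not reported here. The genes closest to a member are the 3 with the highest Pearson's r of mean log2 CPM (prior count 2) over 12 conditions. The members and lists were chosen with earlier results of these data known.

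Same-numbered polarization samples come from the same mouse. In the reprogramming experiment, the deviations of same-numbered samples correlated above 0.1 in all 3 pairs in 10 of 20 comparisons, among them the combined and Pparg pools against either reference and the Myc pool against the negative pool. The replicate block was used beside a result there.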

Additional observations from a re-analysis of the deposited data

Results flagged for a closer look

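Some results stood out because the same contrast differed between sets of samples. For Cebpb, the log2 effect of M1 against M0 was lower in mock than in untransfected cells by an interaction test (-0.88), and so was that of M2 against M0 (-0.81). For Vsig4, the effect of M2 against M0 was higher in mock cells by the same test (1.38), with all M2 samples below all M0 samples when untransfected (log2 -0.80) and above them in mock cells (log2 0.58, not called).

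The other differences lie between the experiments and were not tested. Samples of the contrast did not overlap in either experiment, and the direction turned. Adgre1 was higher in M1 at 24 h (log2 1.79 against M0 and 1.95 against M2). It was lower in untransfected M1 (-0.87 against M0 and -0.86 against M2) and in M1 mock (-0.82 and -1.05). Maf in M1 against M2 was 0.85 at 24 h, -1.29 untransfected and -1.49 in mock cells. Icam2 was -0.21 for M1 against M0 at 24 h (not called) and 0.85 in mock cells. For M1 against M2, Icam2 was -0.49 at 24 h, 0.66 untransfected and 0.49 in mock cells (the last not called). Read length, layout, sequencing site and possibly culture time differ with the experiment and cannot be told apart from it. Groups of 3 were too small for a test of single samples that stand apart.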

How the results depend on the processing

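Of 225 pairs of a member and a comparison, 82 were called, in comparisons that called 0.0 to 72.9% of all genes. Of these 82 pairs, 60 were called under every alternative that gave a value, 22 were lost under at least 1, and none turned direction while called. A further 37 of the 143 pairs not called were called under some alternative. The cause of these changes was not tested. The share of all genes called under each alternative is not given here, so the counts below cannot be set against it. Leaving out each replicate in turn moved the number of members called to 1 to 3 in M2 against M0 (untransfected), 0 to 1 in M2 mock against M0 mock, 2 to 6 in M0 mock against M0, 3 to 5 in the combined pool against M2 mock and 1 to 1 against the negative pool. It gave 0 to 2 in the E2f1 pool against M2 mock, 1 to 3 in the Myc pool against the negative pool, 0 to 1 in the Pparg pool against either reference, 1 to 2 in the Stat6 pool against M2 mock, and 0 to 3 and 1 to 3 in the mock minus untransfected contrasts of M1 and M2 against M0. With technical replicates as separate samples, M2 against M0 at 24 h called 7.

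With the replicate block, M2 against M0 (untransfected) called 4, the Myc pool against the negative pool 6, the Pparg pool against M2 mock 2, the Stat6 pool against the negative pool 1, and the mock minus untransfected contrasts 5 (M1) and 4 (M2). It changed no call at 24 h. The block also called Timd4 in untransfected M1 against M0 (log2 -0.96, adjusted p = 0.0191), M2 against M0 (log2 -1.58, adjusted p = 0.00229) and M1 mock against M0 mock (log2 1.5, adjusted p = 0.00392), where not every same-numbered pair correlated above 0.1. Where samples shared only a number, the block added calls without removing any. Without a low-count filter, the counts were 6 in M2 against M0 (untransfected), 3 in M2 mock against M0 mock, 1 in the E2f1 and 6 in the Myc pool against the negative pool, 1 in the Pparg pool against M2 mock, 1 in the Stat6 pool against the negative pool, and 5 and 4 in the mock minus untransfected contrasts of M1 and M2. With at least 10 counts in every sample, which removes Timd4 and Vsig4 from the reprogramming experiment, they were 1 in M2 against M0, 3 in M0 mock against M0, 0 in the combined and 1 in the Stat6 pool against the negative pool, and 2 and 1 in those contrasts. With only the groups compared, they were 4, 1, 6 and 1 in the combined, E2f1, Myc and Stat6 pools against the negative pool, and 0 and 1 in those contrasts. DESeq2 gave 1 in the combined and 1 in the Stat6 pool against the negative pool and 4 in the M1 contrast, where RLE size factors gave 2.

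With Spearman's measure, 0 or 1 of the 3 closest genes were shared with Pearson's for each member, so the closest genes depend on the measure. Low counts limit Timd4 and, in M1 cells, Vsig4 and Gata6.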

Other observations

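Kdr, the gene of VEGF receptor 2, was looked at after its values were seen, as the leading gene of the endothelial list. In the polarization experiment it was 11.7 ± 1.99 CPM in M0, 34.1 ± 9.94 in M1 and 4.87 ± 0.833 in M2 cells (n = 3 each). In the reprogramming experiment it was 13.9 ± 3.77 CPM in M0, 18.3 ± 1.38 in M1 and 16.2 ± 3.14 in M2 cells (n = 3 each). In mock cells it was 33.9 ± 4.62 CPM in M0, 18.7 ± 1.65 in M1 and 29.6 ± 1.13 in M2 (n = 3 each). With the 6 siRNA pools Kdr was 50.5 to 73.0 CPM on average (n = 3 each). Its order over the 3 polarization conditions at 24 h was that of Adgre1.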
